A study of Homo sapiens with 6 samples.

Results

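SMARCA4 encodes BRG1, an ATPase of the SWI/SNF (BAF) chromatin remodeling complexes. The 10 genes described here were SMARCA4 and 9 other SWI/SNF subunits, chosen by name: SMARCA2, SMARCB1, SMARCC1, SMARCC2, SMARCD1, SMARCE1, ARID1A, ARID1B and PBRM1. Each of the 10 had a row among the 35268 named genes of the deposited table. All 10 were among the 13930 genes with a mean normalized count of at least 10, which were tested. The table came from Rh30, an established cell line of PAX3-FOXO1 fusion-positive rhabdomyosarcoma (FP-RMS), a pediatric cancer of impaired muscle differentiation. One group of 3 libraries came from cells given vehicle (DMSO) and the other group of 3 from cells given 1 µM YK-4-279 in DMSO for 24 h. YK-4-279 is a small molecule developed against ETS family fusion proteins, and the comparison asks which transcripts change in FP-RMS cells under it. Both groups were 1 line in the same serum-containing medium, with no engineered allele named in the labels. The sources did not say whether the 3 libraries of a group came from separate cultures, so p-values measure the spread between libraries.

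SWI/SNF complexes use the energy of ATP hydrolysis to slide or evict nucleosomes, which opens promoters and enhancers to transcription factors. Each complex holds a single ATPase, SMARCA4 or its paralog SMARCA2, and SMARCC and SMARCD proteins, joined in BAF and PBAF by SMARCE1 and SMARCB1. ARID1A or ARID1B marks the canonical BAF form, PBRM1 and ARID2 mark PBAF, and BRD9 with BICRA or BICRAL marks the non-canonical form. In muscle, SWI/SNF is known to work with MYOD1 at myogenic genes, and loss of SMARCB1 defines another childhood cancer, the rhabdoid tumor.

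The libraries held from 16724650 to 24677433 reads on named genes. The first DMSO library was the shallowest, had 6.05% of its reads on mitochondrial genes against 4.74% to 5.03% in the other 5, and correlated least with the rest (mean r 0.9888, against 0.9923 to 0.9929). All 9 rhabdomyosarcoma markers were expressed in every library, led by MYOD1, and none passed the test. Their summed normalized count ran from 91205 to 106522 in DMSO and from 97670 to 102878 in YK-4-279. The leukocyte markers PTPRC and CD3E each had at most 1 read in a library. The 4 endothelial markers summed to between 40.9 and 64.0, and the 3 epithelial markers to between 50.9 and 90.0, with CDH1 at or near 0 and EPCAM making up most of the sum.

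Across the 10 members, 1 fell, none rose and 9 did not pass the test in YK-4-279 treated cells. The test was limma on log2(normalized count + 1), with Benjamini-Hochberg adjustment over all 13930 genes and a threshold of 0.05. Over all genes tested, 475 were called (3.41%), 299 of them lower (2.15%). The member that fell was SMARCC2. The median log2 fold change was -0.04 over the members and -0.01 over all genes tested. In 2 members, SMARCC1 and SMARCC2, the 3 treated libraries lay below all 3 vehicle libraries; groups did not overlap in either direction in 26.0% of all genes tested. In bulk RNA a change in the cells present and a change in RNA per cell cannot be told apart.

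**Figure D1:**
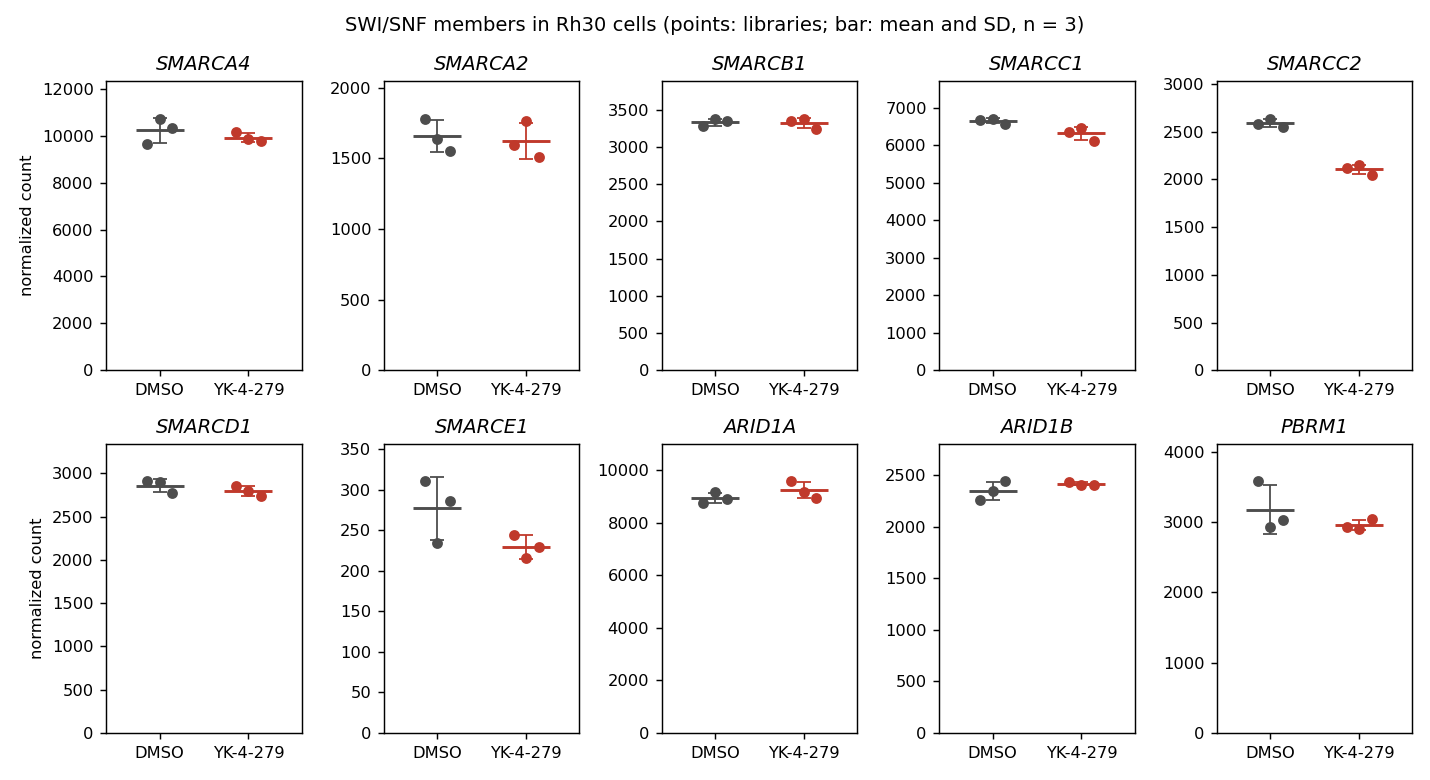
Normalized count of each of the 10 members (y axis, from 0) in the 3 DMSO and the 3 YK-4-279 libraries. Points are libraries, and bars are means with SD (n = 3). SMARCC2 shows a clear gap between groups, from a DMSO mean of 2589 to 2104, while SMARCA4, SMARCA2 and SMARCB1 overlap.

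The ATPases did not pass the test. SMARCA4 (chr19:10960932-11079426, plus strand, hg38, GENCODE v44) had normalized counts of 9651, 10727 and 10312 in the DMSO libraries and 10143, 9874 and 9762 in the YK-4-279 libraries. The groups overlapped, and the first DMSO library was the lowest of the 6 while the other two vehicle libraries were the highest. The means were 10230 ± 543 (SD, n = 3) and 9926 ± 196 (SD, n = 3). The log2 fold change was -0.04 (SE 0.06, limma adjusted p = 0.731), and its 95% confidence interval ran from -10.7% to 5.63%. SMARCA4 was among the genes with the highest counts, at percentile 98.2 of the mean normalized counts tested, and rested on 7654 to 12350 reads per library.

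The SMARCA4 value differed between alternatives. Without the first DMSO library the log2 fold change was -0.084 (limma adjusted p = 0.167), and without the second it was -0.007 (0.962). These were the ends of its range with 1 library left out. The canonical SMARCA4 transcript has 60.6% GC, the highest of the 10 members. After a fitted dependence on GC content and transcript length had been subtracted in each library, the log2 fold change was -0.12. It then passed the threshold (limma adjusted p = 0.0432). That fit called 1959 of 13705 genes, 1463 of them lower, against 475 of 13930 in the main fit. The median log2 fold change over all genes was -0.028 in it, against -0.007. With quantile normalization the SMARCA4 log2 fold change was 0.01 (adjusted p = 0.930). Over all alternatives run, the SMARCA4 adjusted p ran from 0.0432 to 0.962.

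SMARCA2 (chr9:1980290-2193624, plus strand), which encodes BRM, the alternative ATPase, had 1779, 1638 and 1552 normalized counts in DMSO and 1596, 1760 and 1512 in YK-4-279. The ranges nearly coincided. The log2 fold change was -0.03 (SE 0.075, limma adjusted p = 0.866), with an interval of -12.5% to 9.51%.

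Because YK-4-279 is directed at ETS factors, the RefSeq promoter windows of the members were searched for the letters CCGGAA on both strands. A window (GRCh38.p14) ran from 250 bases before to 50 bases after a gene's start. CCGGAA was taken as 1 form of an ETS site. The shorter letters GGAA, which also stand in the SMARCA4 window printed below, were not counted. Windows were present for 8 members, 14 in all. SMARCC1 and SMARCC2 had no window, so the promoter of SMARCC2, the member that fell, was not searched. Of these windows, 4 held CCGGAA, 1 each for SMARCA2, SMARCD1, SMARCE1 and ARID1B. Of all 35116 windows of the same length, 17.2% held it. The windows at the first listed starts of SMARCA4 (chr19:10960780-10961079) and SMARCA2 (chr9:2015097-2015396), and that of SMARCD1 (chr12:50085092-50085391), all on the plus strand, are printed. They set the ATPase without CCGGAA beside its paralog with 1 match and SMARCD1 with 2. Capitals mark CCGGAA or its reverse complement TTCCGG.
SMARCA4: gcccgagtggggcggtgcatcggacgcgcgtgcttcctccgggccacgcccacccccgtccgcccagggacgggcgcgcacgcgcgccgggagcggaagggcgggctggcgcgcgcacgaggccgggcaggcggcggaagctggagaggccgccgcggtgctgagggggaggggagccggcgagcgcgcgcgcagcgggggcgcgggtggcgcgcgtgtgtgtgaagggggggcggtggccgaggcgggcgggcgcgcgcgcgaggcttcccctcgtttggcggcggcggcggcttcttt
SMARCA2: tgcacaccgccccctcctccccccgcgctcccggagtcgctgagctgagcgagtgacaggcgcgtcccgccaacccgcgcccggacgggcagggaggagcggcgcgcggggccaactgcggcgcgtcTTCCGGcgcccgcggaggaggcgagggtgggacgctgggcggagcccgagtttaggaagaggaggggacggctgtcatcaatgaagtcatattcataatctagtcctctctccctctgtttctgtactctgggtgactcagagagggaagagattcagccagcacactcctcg
SMARCD1: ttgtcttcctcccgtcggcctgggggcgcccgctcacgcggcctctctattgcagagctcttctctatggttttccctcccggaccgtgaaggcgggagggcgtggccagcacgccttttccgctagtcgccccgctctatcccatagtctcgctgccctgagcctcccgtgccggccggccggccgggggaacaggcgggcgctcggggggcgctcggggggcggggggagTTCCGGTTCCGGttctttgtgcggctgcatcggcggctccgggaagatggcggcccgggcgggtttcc
None of these 3 genes passed the test under YK-4-279, and a match in a window is a description of letters, not of a bound site.

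Within each library the ratio of paralogous subunits does not depend on the scaling between libraries. The SMARCA4 to SMARCA2 ratio of normalized counts was 5.42, 6.55 and 6.64 in the DMSO libraries and 6.36, 5.61 and 6.46 in the YK-4-279 libraries. Per length of the canonical transcripts, SMARCA4 made up 86.4% ± 1.36 (SD, n = 3) of the ATPase transcripts in DMSO and 86.3% ± 0.925 (SD, n = 3) in YK-4-279. The difference of the log2 ratio was -0.01 (exact permutation test, two-sided, p = 0.900, and 0.900 after adjustment over 3 pairs). The canonical transcripts differ in GC content, 60.6% for SMARCA4 against 48.8% for SMARCA2. With the GC and length trend removed, the log2 fold changes were -0.12 for SMARCA4 and -0.05 for SMARCA2. The lowest ratio was in the first DMSO library, and the treated range lay within the vehicle range.

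**Figure D2:**
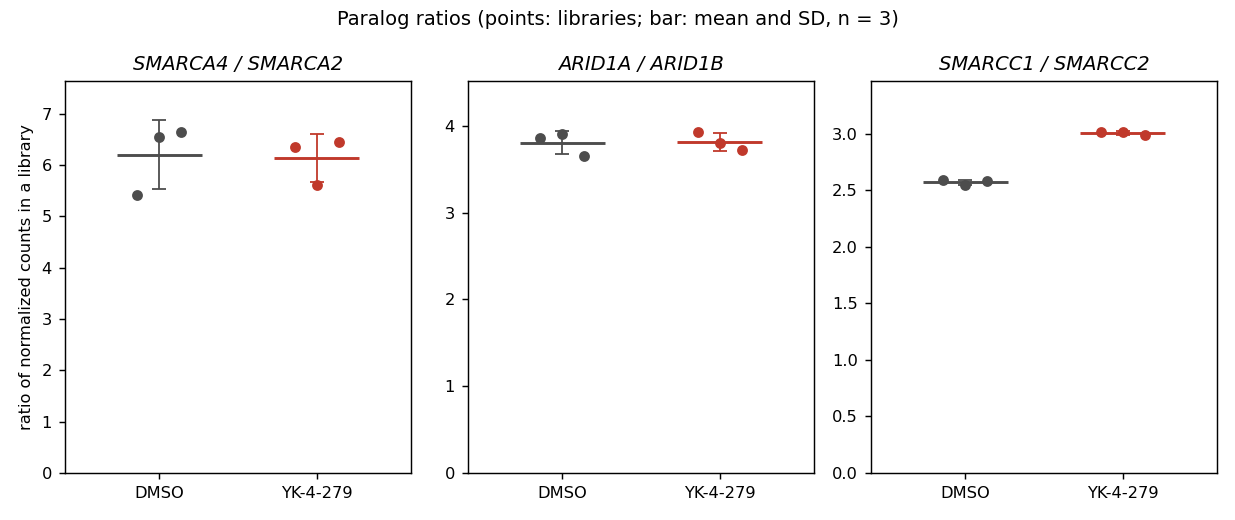
Ratio of normalized counts of a pair of paralogs within a library (y axis, from 0) in DMSO and YK-4-279. Points are libraries, and bars are means with SD (n = 3). The SMARCC1 to SMARCC2 ratio separates the groups, 2.55 to 2.59 against 2.99 to 3.01, and the other 2 ratios overlap.

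SMARCC2 (chr12:56162359-56189567, minus strand), which encodes BAF170, a scaffold subunit of the core, was the member that fell. Its normalized counts were 2582, 2636 and 2550 in DMSO and 2115, 2147 and 2051 in YK-4-279. Every treated library lay below every vehicle library, and the gap between the groups was larger than the spread within either. The means were 2589 ± 43.5 (SD, n = 3) and 2104 ± 48.9 (SD, n = 3), a decrease of -18.7% (95% confidence interval -25.4% to -11.5%). The log2 fold change was -0.30 (SE 0.06, limma adjusted p = 0.0134). It was -0.30 with the first DMSO library left out (limma adjusted p = 2.15e-06), and the edgeR and DESeq2 tests of recovered reads gave adjusted p = 0.0165 and 0.00121. The call was lost when any 1 of the YK-4-279 libraries was left out, at log2 fold changes of -0.31 to -0.28. The limma adjusted p was then 0.114 without the first, 0.0928 without the second and 0.115 without the third. The call was also lost when the variance was moderated without a trend (0.105) and when same-numbered libraries were fitted as blocks (0.0552). Over all alternatives run, the SMARCC2 log2 fold change stayed between -0.35 and -0.25.

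The SMARCC2 locus shares bases with other genes. MYL6, a myosin light chain gene on the opposite strand, overlaps 14.1% of the canonical SMARCC2 transcript. A noncoding RNA gene on the same strand overlaps 3.75% of it. The strand setting of the counting was not given in the sources used here. MYL6 had 1614 to 2095 normalized counts and a log2 fold change of 0.04 (SE 0.09, limma adjusted p = 0.841). The part of shared bases in the SMARCC2 value was not tested.

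SMARCC1 (chr3:47585269-47782106, minus strand) encodes BAF155, the paralog that can pair with BAF170 in the core. It had 6684, 6713 and 6577 normalized counts in DMSO and 6371, 6470 and 6125 in YK-4-279. The treated libraries again lay below the vehicle libraries, but the log2 fold change of -0.075 (SE 0.05) did not pass the test (limma adjusted p = 0.472), with an interval of -12.3% to 2.74%. The SMARCC1 to SMARCC2 ratio was 2.59, 2.55 and 2.58 in DMSO and 3.01, 3.01 and 2.99 in YK-4-279. Its log2 difference was 0.22, with no overlap between groups. The exact two-sided permutation p was 0.1, the smallest that 3 libraries against 3 allow, and 0.300 after adjustment over the 3 pairs. Per length, SMARCC1 made up 67.3% ± 0.188 (SD, n = 3) of the pair in DMSO and 70.6% ± 0.106 (SD, n = 3) in YK-4-279. The difference was 0.22 to 0.23 whichever library was left out.

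The other core subunits did not pass the test. SMARCB1 (chr22:23786931-23838009, plus strand), which encodes the subunit lost in rhabdoid tumors, had 3282, 3372 and 3343 normalized counts in DMSO and 3347, 3378 and 3244 in YK-4-279. Its log2 fold change was -0.004 (SE 0.06, limma adjusted p = 0.981), and the interval of -8.11% to 8.22% was centered near 0. DERL3, on the opposite strand over 56.3% of the canonical SMARCB1 transcript, had at most 8.8 normalized counts. SMARCD1 (chr12:50085200-50100707, plus strand), which encodes BAF60A, a subunit that contacts transcription factors, had 2908, 2904 and 2769 in DMSO and 2859, 2793 and 2739 in YK-4-279. Its log2 fold change was -0.03 (SE 0.06, limma adjusted p = 0.803).

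SMARCE1 (chr17:40624962-40648654, minus strand), which encodes the HMG-box subunit BAF57, had the lowest level of the members and, within the DMSO group, the widest relative spread (coefficient of variation 13.9% in DMSO and 6.33% in YK-4-279). It had 310, 235 and 286 normalized counts in DMSO and 244, 215 and 229 in YK-4-279. The second DMSO library lay within the treated range. The log2 fold change was -0.26 (SE 0.12, interval -30.0% to -0.691%), of a size near that of SMARCC2 but on 198 to 342 reads per library, and it did not pass the adjusted threshold (limma adjusted p = 0.252). Another protein-coding gene model on the same strand covers 51.5% of the canonical SMARCE1 transcript, and 7 annotated pseudogenes carry its name. Its level and its change are therefore uncertain.

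The ARID1 subunits, which bind DNA and define canonical BAF, were the members whose log2 fold change was above 0. ARID1A (chr1:26693236-26782104, plus strand), a frequent target of inactivating mutations in cancer, had 8742, 9147 and 8912 normalized counts in DMSO and 9564, 9172 and 8947 in YK-4-279. The third treated library lay within the vehicle range. The log2 fold change was 0.05 (SE 0.05, limma adjusted p = 0.680), with an interval of -4.67% to 11.9%. ARID1B (chr6:156776020-157210779, plus strand), the alternative subunit, had 2263, 2345 and 2441 in DMSO and 2435, 2410 and 2406 in YK-4-279, a log2 fold change of 0.04 (SE 0.06, limma adjusted p = 0.745). With 1 library left out the values ran from 0.02 to 0.07 for ARID1A (the lowest without the first YK-4-279 library) and from 0.015 to 0.07 for ARID1B (the lowest without the first DMSO library). The first DMSO library was the lowest of the 6 for both genes, and with the trend on GC content and length removed both values changed sign, to -0.04 for ARID1A and -0.04 for ARID1B. The ARID1A to ARID1B ratio was 3.86, 3.90 and 3.65 in DMSO and 3.93, 3.81 and 3.72 in YK-4-279. The difference of its log2 ratio was 0.005 (exact permutation test, two-sided, p = 0.900, and 0.900 after adjustment over 3 pairs).

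PBRM1 (chr3:52545352-52685917, minus strand) encodes BAF180, the bromodomain subunit of PBAF. It had 3580, 2934 and 3028 normalized counts in DMSO and 2930, 2902 and 3040 in YK-4-279. The first DMSO library stood above the other 5, which lay within 2902 to 3040. The log2 fold change was -0.10 (SE 0.07, limma adjusted p = 0.495), and -0.01 without that library (adjusted p = 0.907). The first DMSO library was the highest of the 6 for the 3 other PBAF-specific subunits, ARID2, BRD7 and PHF10, as well. PHF10, the PBAF plant homeodomain subunit, had 3942, 3268 and 3430 in DMSO and 2934, 2898 and 3227 in YK-4-279, without overlap. Its log2 fold change was -0.23 (SE 0.07, limma adjusted p = 0.113). PHF10 passed the threshold with the first DMSO library left out (-0.15, adjusted p = 0.0185), with the second left out (-0.29, 0.0432) and with the GC and length trend removed (-0.30, 0.0142). Those fits called 1823, 676 and 1959 genes, against 475 in the main fit. ARID2 had a log2 fold change of -0.12 (adjusted p = 0.417), which was -0.03 without the first DMSO library, and BRD7 one of -0.16 (adjusted p = 0.235), which was -0.115 without it. Genes on the opposite strand overlap 40.4% of the canonical BRD7 transcript and 22.4% of that of PHF10, and 7 annotated pseudogenes carry the name of BRD7, so these counts are uncertain.

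The first DMSO library was the highest of the 6 for 4 members, SMARCA2, SMARCD1, SMARCE1 and PBRM1, and the lowest for 3, SMARCA4, ARID1A and ARID1B. Of all genes tested it was the highest for 4699 and the lowest for 4016. The GC content of the canonical transcripts was 60.6% for SMARCA4, 57.5% for ARID1A and 53.6% for ARID1B, against 48.8% for SMARCA2, 53.4% for SMARCD1, 42.0% for SMARCE1 and 41.8% for PBRM1. In the other 3 members the first DMSO library was neither the highest nor the lowest, and their transcripts have 59.6% GC for SMARCB1, 53.4% for SMARCC2 and 46.5% for SMARCC1.

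Levels can be compared between genes only per length. Per kilobase of the canonical transcript (GENCODE v44), SMARCA4 had the highest level of the members, with a mean of 1834 ± 97.3 normalized counts per kb in DMSO (SD, n = 3) and 1780 ± 35.1 in YK-4-279 (SD, n = 3). ARID1A and SMARCC1 followed, with 1039 ± 23.7 and 1048 ± 11.3 in DMSO, and did not separate, since their ranges over the 6 libraries overlapped. SMARCD1 (871 ± 24.1 in DMSO), SMARCB1 (642 ± 8.80) and SMARCC2 (509 ± 8.54) came next. SMARCC2 and PBRM1 (398 ± 43.7 in DMSO) overlapped in their ranges over the 6 libraries, 403 to 518 and 363 to 448. The lowest SMARCC2 library was the third YK-4-279 library and the highest PBRM1 library the first DMSO library. SMARCA2 (288 ± 19.9), ARID1B (228 ± 8.60) and SMARCE1 (53.8 ± 7.46) closed the order, each with all 6 libraries below those of the gene before. The order depended on the length used. Per kilobase of the whole exonic sequence of the gene, SMARCC1 (851 normalized counts per kb over the 6 libraries) stood above SMARCA4 (647), and SMARCB1 moved from the fifth place to the seventh (201). SMARCA2, ARID1B and SMARCE1 stayed the 3 lowest under both lengths.

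**Figure D3:**
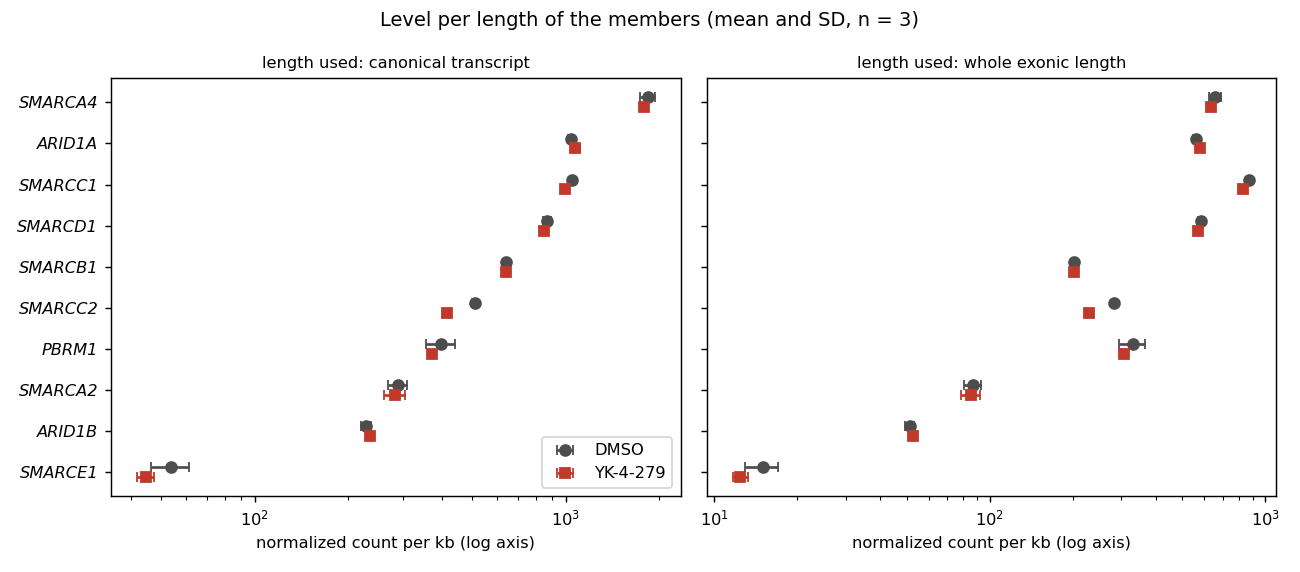
Normalized count per kb of each member (log axis), by canonical transcript length (left) and whole exonic length (right), as mean and SD of 3 DMSO (circles) and 3 YK-4-279 (squares) libraries. SMARCA4 leads by canonical length and SMARCC1 by exonic length, and SMARCE1 is the lowest in both.

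Of 19 other SWI/SNF subunits, 17 passed the filter, and ACTL6B and DPF3, alternative subunits of neurons and of striated muscle, did not (at most 2 and 4 reads in a library). None of the 17 passed the limma test, and 3 had an unadjusted p under 0.05 (SMARCD3, BRD7 and PHF10), a share close to that over all genes tested (2600 of 13930, 18.7%). The edgeR and DESeq2 tests also called 0 of them. Their log2 fold changes ran from -0.23 to 0.165 with a median of -0.07, beside -0.01 over all genes tested, and 12 of 17 lay below 0, as did 7217 of the 13930 genes tested. ACTB, the actin subunit shared by all forms and the one with the highest mean normalized count, had a log2 fold change of -0.08 (limma adjusted p = 0.432). All its treated libraries lay below all its vehicle libraries, and 12 annotated pseudogenes carry its name. Of the 17 subunits, 2 lay lower and 2 higher without overlap between groups. Groups did not overlap in 26.0% of all genes tested. SMARCD3, which encodes BAF60C, the SMARCD paralog of muscle, had 1715, 2062 and 1964 normalized counts in DMSO and 2225, 2072 and 2124 in YK-4-279. All treated libraries lay above all vehicle libraries, at a log2 fold change of 0.165 (SE 0.07, limma adjusted p = 0.249), which was 0.09 without the first DMSO library. SMARCD2, a further SMARCD paralog, had a log2 fold change of -0.09 (adjusted p = 0.565). Without the first DMSO library SMARCD2 passed the threshold (-0.18, adjusted p = 0.0286), and so did DPF1, a subunit of canonical BAF (-0.28, adjusted p = 0.0113, against -0.13 and 0.593 with all libraries). That fit called 1823 of the 13930 genes tested. With 1 library left out the values ran from -0.18 to -0.05 for SMARCD2 (the highest without the third DMSO library) and from -0.28 to -0.03 for DPF1 (the highest without the second). DPF2, a subunit of canonical BAF that reads acetylated histone, had 1179, 1316 and 1303 in DMSO and 1411, 1359 and 1372 in YK-4-279. Its groups did not overlap either, at a log2 fold change of 0.13 (SE 0.07, limma adjusted p = 0.335), which was 0.08 without the first DMSO library. Genes on the opposite strand overlap 31.8% of the canonical SMARCD3 transcript and 33.4% of that of DPF2, so these counts are uncertain too. Among the 7 tested shared subunits values ran from -0.095 to 0.165, among the 4 of canonical BAF from -0.13 to 0.13, and among the 3 of the non-canonical form from -0.075 to 0.01. SS18L1 had the highest mean normalized count, not per length, of the canonical subunits (log2 fold change 0.03, adjusted p = 0.852) and BICRA of the non-canonical ones (0.01, adjusted p = 0.963).

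**Figure D4:**
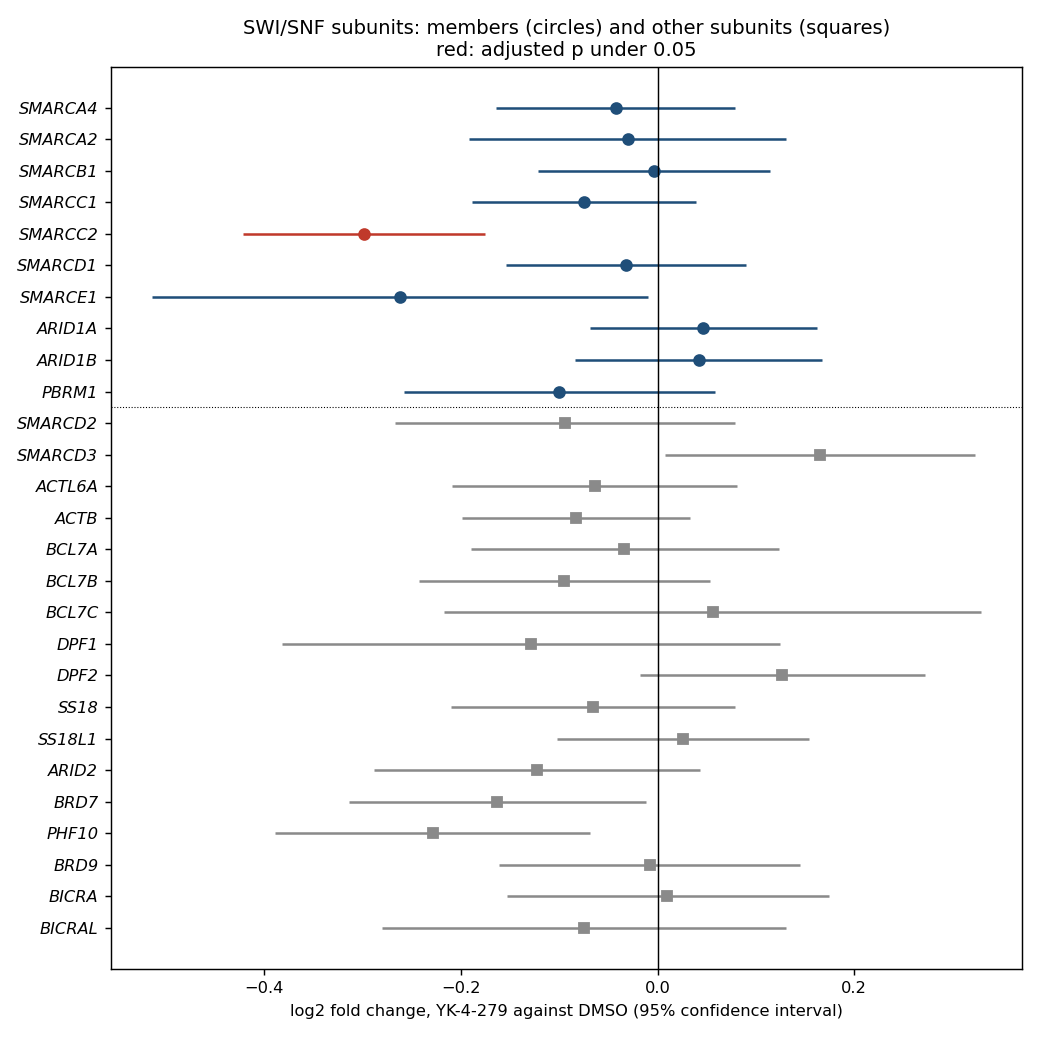
Log2 fold change, YK-4-279 against DMSO, with 95% confidence interval for the 10 members (circles) and the 17 other tested SWI/SNF subunits (squares). SMARCC2, in red, was the single subunit with an adjusted p under 0.05, at -0.30, and the intervals of 22 of the 27 genes include 0.

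The genes whose log2 values over the 6 libraries followed SMARCA4 most closely were TMUB1 (Pearson r 0.997), FZR1 (0.996) and RGMA (0.994), of 10698 genes with a mean of at least 100. These values describe 6 libraries of a single experiment, in which the first DMSO library held the lowest SMARCA4 value. The tenth gene of that order had r = 0.981.

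ETS1, an ETS factor these cells express, had a log2 fold change of 0.005 at the transcript level (SE 0.06, limma adjusted p = 0.974), and like SMARCA4 its groups overlapped.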

How the data were processed

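Poly(A) RNA of Rh30 cells was sequenced with a directional kit. Per the labels and the study's methods, reads were aligned to hg38 and counted per gene with STAR 2.7.9a, and DESeq2 1.44.0 was used. The strand column and annotation of the counting were not given in the sources used here. The deposited values are signal in the form of normalized counts, that is, whole reads times a factor per library, as recovered from the authors' table. In 2 libraries the factor is within 0.1% of 1, so the deposited values nearly equal the reads and do not by themselves show a scaling. A single row without a name was left out. Genes with a mean of at least 10 were tested with limma 3.58.1 (R 4.3.3; trend; pseudocount 1; Benjamini-Hochberg). edgeR 4.0.16 and DESeq2 1.42.0 on recovered reads were alternatives. Paralog ratios were compared by exact permutation (SciPy 1.17.1). Scripts were tested on simulated data. Coordinates, lengths and overlaps are from GENCODE v44 (hg38), and promoter windows from RefSeq (GRCh38.p14).

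The members and gene lists were chosen with earlier results of these data known. Named were the 10 members, the gene with the highest mean count and every called gene of each other list, and the 3 genes most correlated with SMARCA4. SMARCD2, SMARCD3, DPF1, DPF2, ARID2, BRD7, BRD9, BCL7A, BCL7B, BCL7C and the markers other than MYOD1, PECAM1, PTPRC and EPCAM, with CHD4, SRCAP, ACTL6B and DPF3, fall outside that rule and were chosen after their values were seen (MYL6 and DERL3 for their overlap with a member), as were the alternatives run on genes other than members. Alternatives covered the pseudocount, filter, scaling, moderation, replicate block, each library left out, test, GC content and length. A further marker is not reported here.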

Additional observations from a re-analysis of the deposited data

How the results depend on the processing

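The number of genes called, 475, moved to 277 with quantile normalization, 33 without the variance trend, 180 with the replicate block and 1959 with the GC and length trend removed (496 higher, 1463 lower, against 176 and 299). It ran from 19 (without the first YK-4-279 library) to 1823 (without the first DMSO library) with 1 library left out, 242 without the third DMSO library, and 23 without the second and 46 without the third YK-4-279 library. The members called numbered 0 without the trend, 0 with the replicate block and 2 with the GC and length trend removed, and from 0 to 1 with 1 library left out. The other subunits called numbered 0, 4 with the GC and length trend removed (SMARCD2 -0.18, ACTB -0.16, BCL7B -0.18 and PHF10 -0.30) and from 0 to 3 with 1 library left out. The causes were not tested.

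Same-numbered libraries did not deviate together (correlations -0.098, -0.027 and -0.027), and differently numbered ones gave -0.059 to 0.090. With 3 libraries per group these values cannot decide whether the numbers pair the libraries. With the replicate block the SMARCC2 log2 fold change of -0.299 had an adjusted p of 0.0552, and the block changed no other call of a member or other subunit (HELLS, RBBP7 and EZH2 were also lost). With same-numbered libraries as pairs, the SMARCC1 to SMARCC2 difference of 0.224 had an exact p of 0.25, the smallest that 3 pairs allow.

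SMARCA4 was at 0.012 with quantile normalization and at -0.123 with the GC and length trend removed. Of 170 alternative values of the members, 13 had the opposite sign, each below 0.1 in size. With quantile normalization SMARCA2 was 0.017, SMARCB1 0.060, SMARCD1 0.012 and BRD9 0.010. With TMM scaling SMARCB1 was 0.011 and BRD9 0.007, with edgeR 0.014 and 0.009, and with DESeq2 0.010 and 0.004. With the GC and length trend removed ARID1A was -0.044, ARID1B -0.042, BCL7C -0.059, BICRA -0.069, CHD3 -0.034, MYL6 -0.046 and the ARID1A to ARID1B ratio -0.002. With 1 library left out, values ran from -0.091 to 0.022 for SMARCA2, -0.016 to 0.013 for SMARCB1, -0.060 to 0.005 for BCL7A, -0.037 to 0.146 for BCL7C, -0.006 to 0.055 for SS18L1, -0.029 to 0.030 for BRD9, -0.039 to 0.069 for BICRA, -0.049 to 0.096 for CHD3, -0.031 to 0.031 for ETS1 and -0.070 to 0.113 for MYL6. The ratio differences ran from -0.106 to 0.052 for SMARCA4 to SMARCA2 and from -0.024 to 0.024 for ARID1A to ARID1B.

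Of the members, SMARCE1 had the fewest reads, 198 to 342 in a library. Intervals cover the spread between 3 libraries of each group, and groups of 3 cannot reach an exact permutation p below 0.1.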

Other observations

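Beside SWI/SNF, 25 tested ATPases and partners of other remodeler families held 1 called gene, HELLS, and their median log2 fold change was -0.04, beside 475 of 13930 genes called (3.41%) and a median of -0.01 over all genes tested. HELLS, an SNF2 ATPase linked to DNA methylation, had 1156, 1068 and 1128 normalized counts in DMSO and 912, 870 and 927 in YK-4-279, at a log2 fold change of -0.31 (SE 0.07, limma adjusted p = 0.0284). The call was lost with any YK-4-279 library left out (limma adjusted p = 0.119 to 0.173) and without the third DMSO library (0.0949). It was also lost with quantile normalization (0.0626), without the variance trend (0.116) and with the replicate block (0.0785). None of the 9 ISWI genes, the 8 tested CHD genes or the 3 INO80 family genes passed the limma test, with 2, 2 and 0 of them at an unadjusted p under 0.05, which 18.7% of all genes tested had. The gene with the highest mean normalized count of each had log2 fold changes of -0.09 (BAZ1B), 0.04 (CHD3) and -0.08 (EP400), and SMARCAD1, the highest of the other SNF2 genes, had one of -0.14 (adjusted p = 0.411), which was -0.02 without the first DMSO library. Other protein-coding gene models on the same strand cover 90.1% of the canonical CHD4 transcript and 86.5% of that of SRCAP, so the counts of those 2 genes, and which gene of their families is highest, are uncertain.

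Polycomb repressive complex 2 (PRC2), which deposits a repressive histone mark and is known to oppose SWI/SNF, had 3 of 8 genes called, and all 3 fell (median of the 8 on the log2 scale -0.20). Over all genes tested, 299 were called lower (2.15%) and the median was -0.01. RBBP4, a histone chaperone shared with other complexes, had 7211, 6354 and 6572 normalized counts in DMSO and 5246, 5401 and 5504 in YK-4-279 (log2 fold change -0.32, SE 0.06, limma adjusted p = 0.0129). SYNC, on the opposite strand, overlaps 27.4% of the canonical RBBP4 transcript and 7 annotated pseudogenes carry its name, so its counts are uncertain. Its paralog RBBP7 had a log2 fold change of -0.27 (adjusted p = 0.0222). EZH2, the methyltransferase, had 2567, 2369 and 2339 in DMSO and 2092, 2056 and 1976 in YK-4-279 (-0.25, SE 0.06, adjusted p = 0.0459). In 5 of the 8 genes the first DMSO library was the highest, and without it the 3 called genes had log2 fold changes of -0.26 (RBBP4), -0.24 (RBBP7) and -0.21 (EZH2), each still under the threshold. Leaving out any YK-4-279 library ended all 3 calls (adjusted p = 0.0836 to 0.128 for RBBP4, 0.0913 to 0.168 for RBBP7 and 0.186 to 0.232 for EZH2), as did leaving out the third DMSO library for RBBP7 (0.0527) and EZH2 (0.0905). Without the variance trend all 3 calls were lost (0.130 for RBBP4, 0.140 for RBBP7 and 0.169 for EZH2). That of EZH2 was also lost with TMM scaling (0.0528), quantile normalization (0.104) and edgeR (0.0545). With the replicate block the calls of RBBP7 and EZH2 were lost, and that of RBBP4 stayed (limma adjusted p = 0.0430).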
